A study of Caenorhabditis elegans with 8 samples.

Results

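The *col* genes of *Caenorhabditis elegans* encode collagens, most of them building blocks of the cuticle, the extracellular coat of the worm. All rows of the expression tables whose gene symbol begins with *col-* were taken, which gave 159 genes of 46739. Of these, 64 had a mean value of at least 10 in the table for 25°C and 98 in the table for 20°C. Both tables held 63 of them above this level, 1 (*col-45*) passed at 25°C alone, 35 passed at 20°C alone and 60 passed in neither. A value above 0 was found for 152 genes in at least 1 library and for 81 in all 8 libraries, and 7 (*col-37*, *col-51*, *col-55*, *col-136*, *col-137*, *col-171* and *col-185*) were at 0 in all 8.

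Germlines were extracted from 100 worms per group and their mRNA was sequenced in 4 groups of 2 libraries each: *nmad-1*(ok3133) at 25°C, WT at 25°C, *nmad-1*(ok3133) at 20°C and WT at 20°C. The ok3133 allele is a deletion in *nmad-1*, which encodes an AlkB family demethylase, and WT is the N2 Bristol strain. The label gives the stage as L4, the last larval stage, for all 4 groups, and gives no hours within it. Values are RSEM expected counts divided by a size factor of each library, made separately for the 4 libraries of each temperature. Genotypes were therefore compared within a temperature, and a level set across temperatures is given in parts per 1000000 (ppm) of the values outside the ribosomal RNA (*rrn-*) genes. The files do not number the replicates, so A and B only tell the libraries of a group apart. The study names them biological replicates, but nothing says how the worms were grouped.

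Cuticle collagens are short secreted proteins with Gly-X-Y repeats. They are made by the epidermis, which lies outside the gonad, trimmed and hydroxylated, assembled as trimers and cross-linked after secretion. A new cuticle is laid down at each moult, and different collagen genes are switched on in successive waves before it, some in every larval stage and others, such as *col-19*, in the adult. Germ cells are not known as a source of cuticle. In these bulk samples, fewer cells of a type and less RNA per cell cannot be told apart.

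The depth was estimated at 18451560 to 33429408 reads per library, and *rrn-* genes took 22.2% to 34.8% of the values, most in *nmad-1* library A at 20°C. The deleted gene, listed as F09F7.7, had values of 170 and 171 in *nmad-1* and 764 and 753 in WT at 25°C, and of 114 and 131 in *nmad-1* and 540.3 and 471 in WT at 20°C, which goes with the labels. Germ cell markers (8 genes such as *glh-1*, a P granule helicase, and *rme-2*, the yolk receptor) summed to 4371 and 4207 ppm in *nmad-1* and 5973 and 5796 in WT at 25°C, and to 4149 and 4992 in *nmad-1* and 4920 and 4869 in WT at 20°C. The tissue named in the labels was therefore present in every library. So were markers of other tissues, which are given beside the results below.

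All 159 genes were matched by identifier to the WBcel235 annotation, which lists 156 as protein coding and 3 (*col-66*, *col-136* and *col-182*) as pseudogenes. They are short genes. The median number of exons was 2 (range 1 to 19) and the median exonic length 1020 bases (465 to 2960), against 5 exons and 1170 bases over 19664 coding genes. The gene with 19 exons and the longest transcript was *col-99*, which encodes a transmembrane collagen and not a cuticle component. Chromosome IV held 42 of the genes, V held 31, X held 28, II held 24, I held 22 and III held 12. The annotation placed 45 of them in 26 pairs of direct neighbours.

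The summed value of the family overlapped between the temperatures in *nmad-1*, and in WT it was lower at 25°C in both libraries. It was 2036 and 1649 ppm in *nmad-1* (libraries A and B) and 934 and 1595 in WT at 25°C. At 20°C it was 3516 and 1927 ppm in *nmad-1* and 3469 and 3568 in WT. The means were 1843 ± 273 in *nmad-1* and 1265 ± 467 in WT at 25°C, and 2722 ± 1123 in *nmad-1* and 3519 ± 69.7 in WT at 20°C (SD, n = 2 each). In ppm the genotypes did not overlap at 25°C. Both *nmad-1* libraries lay above both WT libraries, with 1649 and 1595 as the nearest values. The totals outside *rrn-* genes at 25°C were 16347621 and 16779650 in *nmad-1* and 23675531 and 25458505 in WT. In the deposited values the sums at 25°C were 33286 and 27676 in *nmad-1*, between 22124 and 40614 in WT. At 20°C *nmad-1* library A lay between the WT libraries in ppm and library B far below them. The deposited sums at 20°C were 56785 and 38458 in *nmad-1* and 73347 and 73404 in WT.

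**Figure D1:**
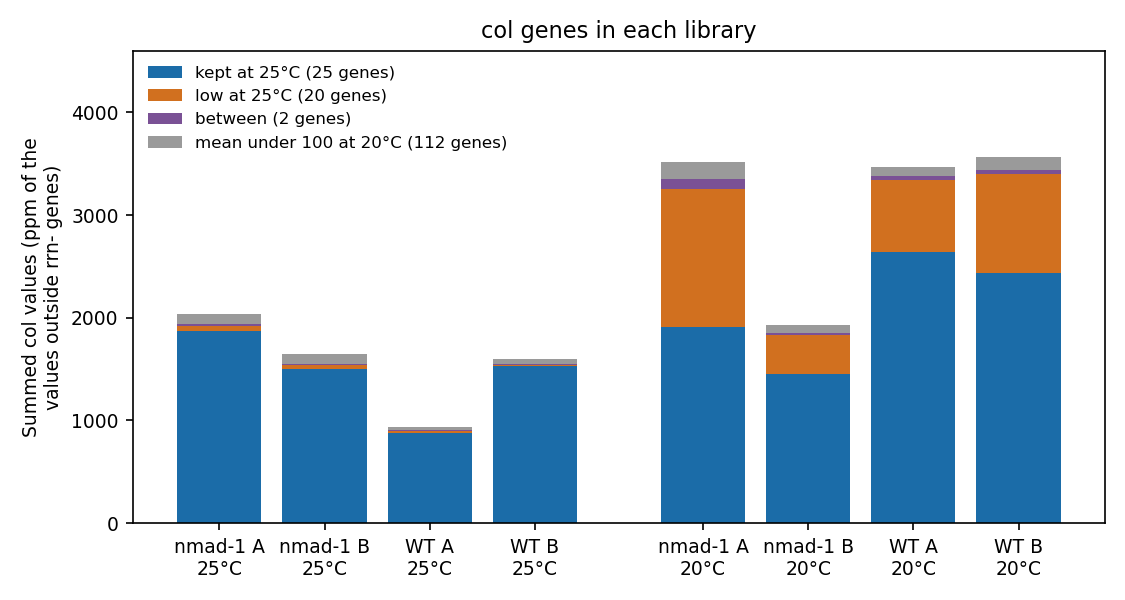
Summed values of the *col* genes in each of the 8 libraries, in ppm of the values outside *rrn-* genes, split into the classes defined in the text. Each bar is 1 library. At 20°C the orange class makes up 1343 ppm in *nmad-1* library A and 378 in library B, and it is at most 51.3 ppm in any library at 25°C.

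Per length, *col-119* was the highest member, at 196 ppm per kilobase of exon in *nmad-1* and 159 in WT at 25°C, and at 199 in *nmad-1* and 368 in WT at 20°C. On the same scale *col-122* had 173 in *nmad-1* and 106.1 in WT at 25°C, and 130 in *nmad-1* and 250 in WT at 20°C. For *col-140* the levels were 161 in *nmad-1* and 98.1 in WT at 25°C, and 102 in *nmad-1* and 165 in WT at 20°C. These levels rest on the ppm totals given above. In the deposited values, given below, the mean of *col-119* at 25°C was lower in *nmad-1* than in WT.

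Inspection of these values showed 2 behaviours among the 47 members whose mean at 20°C was 100 or more, and the classes that follow were drawn after the values were seen and are given without a test. In 20 genes, called low at 25°C here, WT had at 25°C less than 0.1 of its level in ppm at 20°C, with a median ratio of 0.0167. In 25 genes, called kept at 25°C, this ratio was at least 0.25, with a median of 0.465 and a range of 0.269 to 1.10. The other 2 genes, *col-92* and *col-94*, lay between, at 0.190 and 0.225. Over all 7663 genes that reached this mean at 20°C the median ratio was 1.02, and 2.38% (182 genes) were under 0.1. The class low at 25°C held 13 genes, and the class kept at 25°C 8 genes, with a sign that their reads were divided among similar sequences. Their values carried parts of reads in at least as many libraries as had whole reads alone.

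The classes differed in what they contributed to each library. The genes low at 25°C summed to 51.3 and 46.0 ppm in *nmad-1* and 18.3 and 12.995 in WT at 25°C, against 1343 and 378 in *nmad-1* and 701 and 963 in WT at 20°C. The genes kept at 25°C summed to 1868 and 1498 ppm in *nmad-1* and 878 and 1529 in WT at 25°C. At 20°C they summed to 1913 and 1455 ppm in *nmad-1*, below 2645 and 2432 in WT. In the class kept at 25°C, the level in ppm in *nmad-1* at 25°C was a median of 1.02 times that at 20°C, and the same ratio in WT was 0.465. The WT ratio defines the classes and the *nmad-1* ratio does not. The WT ratio and the WT sums of each class are therefore bound by the rule, and the genotypes are set side by side here as a description.

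At 20°C, 6 *col* genes fell in *nmad-1* and none rose, out of 98 tested (limma on log2(value + 1), adjusted over 12260 genes). This is 6.12% of the members, where 0.139% of all genes tested fell (17 genes) and 0.343% rose. The 6 genes thus made up 35.3% of all genes that fell at 20°C. At an unadjusted p below 0.05, 26 members (26.5%) were lower and 1 (1.02%) was higher, against 2.67% and 4.22% of all genes tested. The median log2 fold change of the 98 members was -0.40, against -0.05 over all genes tested.

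All 6 were among the highest members. The first, *col-178* (chromosome X), had values of 924 and 989 in *nmad-1* and 2373 and 2051 in WT at 20°C, a log2 fold change of -1.21 ± 0.26 (SE, adjusted p = 0.0199). By order of p, *col-122* (IV) followed with 2051 and 2438 in *nmad-1* and 5312 and 4664 in WT, a log2 fold change of -1.15 ± 0.26 (SE, adjusted p = 0.0218). For *col-8* (III) the values were 1115 and 1284 in *nmad-1* and 2651 and 2704 in WT, a log2 fold change of -1.16 ± 0.26 (SE, adjusted p = 0.0225). In these genes the libraries of a genotype lay close together and the genotypes were far apart.

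The gene with the highest values, *col-119* (IV), had values of 2971 and 3251 in *nmad-1* and 6958 and 6417 in WT at 20°C, a log2 fold change of -1.10 ± 0.25 (SE, adjusted p = 0.0254). The values of *col-181* (X) were 1618 and 1949 in *nmad-1* and 4184 and 3554 in WT, a log2 fold change of -1.12 ± 0.26 (SE, adjusted p = 0.0263). Those of *col-106* (IV) were 1224 and 1460.3 in *nmad-1* and 3048 and 2624 in WT, a log2 fold change of -1.08 ± 0.26 (SE, adjusted p = 0.0378). No value of *nmad-1* reached a WT value in any of the 6. Parts of reads were assigned to *col-119* and *col-178*, so their split from similar collagens is uncertain. In the annotation *col-119* overlaps *pdzd-8*, *col-122* overlaps *lron-14* and *col-8* overlaps *lgc-38*, and whether reads were counted by strand is not stated for RSEM in the sources used here.

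**Figure D2:**
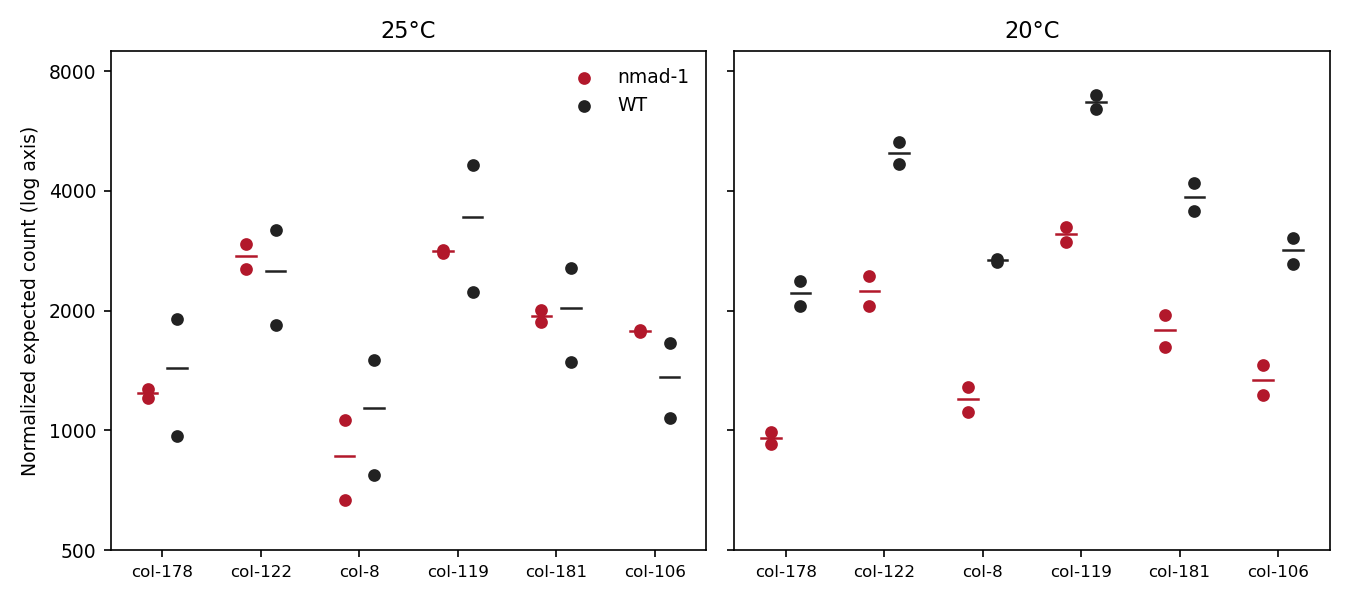
Normalized expected counts (log axis) of the 6 *col* genes that fell in *nmad-1* at 20°C, at 25°C (left) and 20°C (right). Points are single libraries (red *nmad-1*, black WT) and short lines are means of 2. At 20°C no *nmad-1* point reaches a WT point, and at 25°C the *nmad-1* points lie between the WT points, except in *col-8*, where 1 lies below them, and in *col-106*, where both lie above.

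The next members in order of p did not pass the threshold. The values of *col-101* (IV) were 1394 and 1596 in *nmad-1* and 3084 and 3003 in WT (log2 fold change -1.03, adjusted p = 0.0513). Those of *col-184* (X) were 1353 and 1519.6 in *nmad-1* and 3099 and 2764 in WT (-1.03, adjusted p = 0.0522). For *col-140* (V) they were 1617 and 1801 in *nmad-1* and 3485 and 2955 in WT (-0.91, adjusted p = 0.108), and for *col-143* (V) 1279 and 1387 in *nmad-1* and 2613 and 2207 in WT (-0.85, adjusted p = 0.171). The groups did not overlap in these 4 genes either. The adult-specific *col-19* (X) had 528 and 576 in *nmad-1* and 1234 and 852 in WT (-0.89, adjusted p = 0.181).

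Both *nmad-1* libraries lay below both WT libraries at 20°C in 22 of the 98 members (22.4%), against 19.1% of all genes tested, and above them in 7 members (7.14%), against 16.6%. Among the 23 members with a mean of at least 1000, 15 lay below, against 31.3% of 3885 genes at this level. The 6 genes that fell were all in this range, where 0.283% of all genes fell. The median log2 fold change of these 23 was -0.85, against -0.17 for all genes at this level. Below a mean of 1000 it was -0.27 for 24 members with a mean of 100 to 1000 and -0.18 for 51 members below 100, where all genes had medians of -0.03 and 0.25, and none of these members passed the threshold.

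The classes were also set beside the difference at 20°C. Of the 25 genes kept at 25°C, 18 had both *nmad-1* values below both WT values, including all 6 that fell, and the median ratio of *nmad-1* to WT was 0.531. Among the 20 genes low at 25°C, 2 had both *nmad-1* values below, none fell, and the median ratio was 0.846. The WT values at 20°C enter both the classes and these ratios.

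The classes also differed in how far the *nmad-1* libraries differed from each other. In the class low at 25°C, *nmad-1* library A had a median of 2.88 times the value of library B at 20°C (range 0.856 to 3.64), and 18 of the 20 genes had at least 2 times. The exceptions were *col-14*, at 142 and 88.1, and *col-97*, at 87.0 and 102. In the class kept at 25°C the median was 0.917 (range 0.738 to 2.58), and 3 of the 25 genes (*col-42*, *col-98* and *col-103*) had at least 2 times. Over all genes at this level the median was 0.787, and 6.58% (504 genes) had at least 2 times. Of the 182 genes in all that were under 0.1 in WT at 25°C, 61.5% (112 genes) had at least 2 times, and 18 of these 112 were *col* genes. The corresponding ratio between the WT libraries had a median of 0.637 in the class low at 25°C and 1.12 in the class kept at 25°C.

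**Figure D3:**
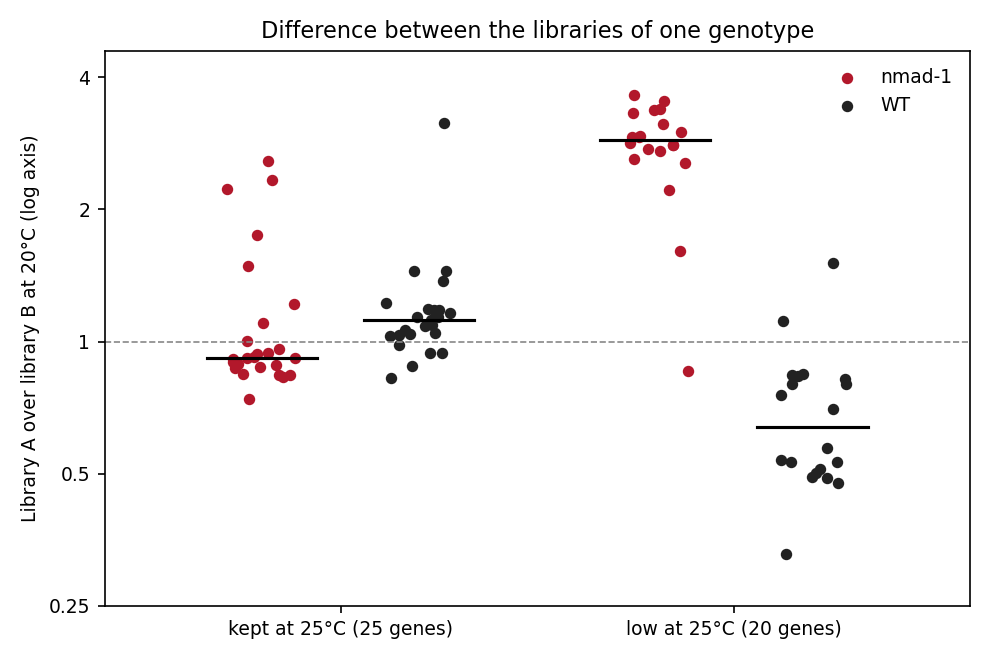
Value of library A divided by that of library B at 20°C (log axis) for the 25 genes kept and the 20 genes low at 25°C, in *nmad-1* (red) and WT (black). Each point is a gene and each bar a median. The *nmad-1* points of the class low at 25°C centre on 2.88, and those of the class kept at 25°C on 0.917.

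The highest genes of the class low at 25°C show these ratios. The values of *col-3* (IV) at 20°C were 3978 and 1179 in *nmad-1* and 1923 and 3755 in WT, and those of *col-10* (V) were 3547 and 1249.6 in *nmad-1* and 2641 and 3296 in WT. For *col-17* (II) they were 1017 and 371 in *nmad-1* and 479 and 903 in WT. In all 3 the WT libraries lay between the *nmad-1* libraries, and none passed the test at 20°C (adjusted p = 0.950, 0.905 and 0.972). At 25°C *col-17* was at 0 in all 4 libraries.

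At 25°C, 18 members rose and 5 fell of 64 tested (adjusted over 11955 genes). These are 28.1% and 7.81% of the members, where 32.8% of all genes tested rose and 38% fell. The median log2 fold change of the members was 0.36, against -0.09 over all genes. The split depends on the scaling of the libraries. Scaling each library to the same total moved the median of all genes by 0.57 and gave 29 members higher (45.3%, against 50.4% of all genes) and 0 lower (against 6.44%). Scaling to the upper quartile moved it by 0.39 and gave 24 members higher (37.5%, against 41.0% of all genes) and 0 lower (against 14.2%). At 20°C the same scalings moved the median of all genes by 0.06 and 0.16.

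The calls at 25°C were set beside those of all genes at the same level. Of 37 members with a mean of 10 to 100, 15 rose and 0 fell, where 58.7% of all such genes rose and 3.53% fell. Of 12 members with a mean of 100 to 1000, 2 rose and 5 fell, where 33.2% rose and 35% fell. Of 15 members with a mean of at least 1000, 1 rose and 0 fell, where 3.35% of all genes rose and 79.2% fell. The median log2 fold change of these 15 was -0.01, against -0.50 for all genes at this level.

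The member that rose with a mean above 1000 was *col-95* (III), with values of 2625 and 2290 in *nmad-1* and 1097 and 1933 in WT at 25°C, a log2 fold change of 0.75 ± 0.23 (SE, adjusted p = 0.0174). At 20°C it had 2095 and 2223 in *nmad-1* and 3466 and 2835 in WT (-0.54, adjusted p = 0.698). The genotypes overlapped at 25°C in the members with the highest values. The values of *col-119* were 2797 and 2846 in *nmad-1* and 2231 and 4657 in WT, a log2 fold change of -0.19 ± 0.28 (SE, adjusted p = 0.547). For *col-122* they were 2949 and 2543 in *nmad-1* and 1839 and 3193 in WT, a log2 fold change of 0.18 ± 0.22 (SE, adjusted p = 0.491). The *nmad-1* libraries of *col-119* were close together, between the WT libraries.

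Among the lower genes, *col-74* (II) had the largest increase under the naming rule, with 78.9 and 121 in *nmad-1* and 0.990 and 24.1 in WT at 25°C (log2 fold change 3.80 ± 0.998, SE, adjusted p = 0.00937). It overlaps *gtap-1*. The values of *col-139* (V) were 89.2 and 79.1 in *nmad-1* and 12.9 and 54.8 in WT (1.61 ± 0.59, SE, adjusted p = 0.0369), and those of *col-142* (V) were 168 and 161 in *nmad-1* and 35.6 and 98.6 in WT (1.46 ± 0.43, SE, adjusted p = 0.0153). In these genes both *nmad-1* libraries lay above both WT libraries, and WT library A was the lowest. For *col-76* (II) the values were 108 and 159 in *nmad-1* and 45.6 and 57.0 in WT (1.34 ± 0.30, SE, adjusted p = 0.00445). The transmembrane collagen *col-99* (IV), which overlaps *daf-1*, had 70.9 and 65.1 in *nmad-1* and 18.8 and 24.1 in WT (1.63 ± 0.35, SE, adjusted p = 0.00384).

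From the class low at 25°C, 5 of 11 genes tested rose, with WT values of at most 69.3. Of all genes, 58.7% rose at a mean of 10 to 100 and 33.2% at 100 to 1000, where *col-3* lay. The WT values at 25°C enter both the class and these fold changes, so the count is a description. The values of *col-10* were 145 and 79.3 in *nmad-1* and 64.8 and 50.5 in WT (log2 fold change 0.89 ± 0.34, SE, adjusted p = 0.0451). Those of *col-3* were 236 and 102 in *nmad-1* and 69.3 and 44.4 in WT (1.47 ± 0.41, SE, adjusted p = 0.0125), but *col-3* and its neighbour *col-117* share reads. In *nmad-1* library A at 25°C *col-117* was at 0, and in library B it had 137. The sum of both genes was 236 and 239 in *nmad-1* and 139 and 88.8 in WT at 25°C, and 6330.4 and 2239 in *nmad-1* and 4488 and 5452 in WT at 20°C. The sum was not tested.

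Of the 5 members that fell at 25°C, 4 also had both *nmad-1* values below both WT values and a mean of at least 50. The values of *col-103* (IV) were 325 and 175 in *nmad-1* and 361 and 641 in WT (log2 fold change -1.01 ± 0.33, SE, adjusted p = 0.0252). The adult-specific *col-19* had 494 and 343 in *nmad-1* and 534 and 1278 in WT (-1.004 ± 0.36, SE, adjusted p = 0.0338). Those of *col-98* (III) were 284 and 170 in *nmad-1* and 287 and 519 in WT (-0.81 ± 0.32, SE, adjusted p = 0.0476), and those of *col-38* (II) were 144 and 133 in *nmad-1* and 185 and 217 in WT (-0.53 ± 0.20, SE, adjusted p = 0.0420). The nearest values of the genotypes were 284 and 287 in *col-98*, and WT library B was the highest library in all 4. Scaled to the same total, *col-38* had a log2 fold change of 0.038. The fifth member that fell was *col-93* (III), with 687 and 211 in *nmad-1* and 677 and 1358 in WT, where the genotypes overlapped.

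The difference between the temperatures was tested as an interaction over 63 members, with the genotype difference at 20°C subtracted from that at 25°C. It passed the threshold in 6 members, all with a higher value at 25°C, and in 0 with a lower one. Of all 11265 genes tested, 8.07% had a higher and 1.25% a lower value at 25°C, and 9.52% of the members had a higher one. The sign was positive in 46 of the 63 members, and the median was 0.95, against -0.11 over all genes. At an unadjusted p below 0.05 there were 20 members (31.7%) with a higher value at 25°C and 0 with a lower one, against 18.7% and 9.51% of all genes.

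Of the genes with the smallest interaction p, *col-106*, *col-184*, *col-122* and *col-95* belong to the class kept at 25°C. The interaction of *col-106* was 1.49 ± 0.29 (SE, adjusted p = 0.0131): its values at 25°C were 1763 and 1786 in *nmad-1* and 1075 and 1657 in WT, a log2 fold change of 0.41, against -1.08 at 20°C. That of *col-184* was 1.35 ± 0.28 (SE, adjusted p = 0.0160), with 1742 and 1610.0 in *nmad-1* and 1099 and 1643 in WT at 25°C. The interaction of *col-122* was 1.33 ± 0.32 (SE, adjusted p = 0.0281) and that of *col-95* was 1.29 ± 0.33 (SE, adjusted p = 0.0320). For *col-109* (IV) it was 3.07 ± 0.73 (SE, adjusted p = 0.0255), with 29.7 and 24.8 in *nmad-1* and 1.98 and 5.48 in WT at 25°C, and 61.3 and 37.3 in *nmad-1* and 64.8 and 61.2 in WT at 20°C. The sixth was *col-14* (IV), at 3.79 ± 0.999 (SE, adjusted p = 0.0360), with 36.6 and 21.7 in *nmad-1* and 0 and 5.48 in WT at 25°C. With WT means of 3.73 and 2.74 at 25°C, near the value of 3 reads, *col-109* and *col-14* passed the filter of 10 at this temperature only through *nmad-1*, where they are high, so a difference was built into their selection and their values are descriptions. The same holds at 25°C for 5 of the 18 members that rose (*col-14*, *col-109*, *col-121*, *col-153* and *col-165*).

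**Figure D4:**
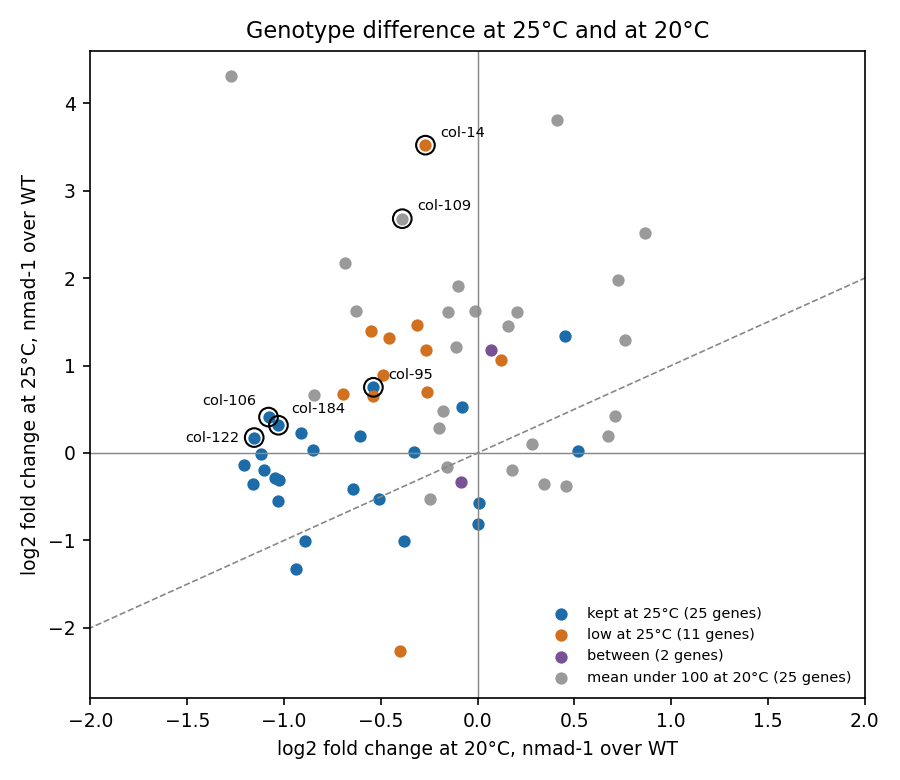
log2 fold change of *nmad-1* over WT at 25°C (vertical axis) against that at 20°C (horizontal axis) for the 63 *col* genes in the interaction test, coloured by class. Each point is a gene, rings mark the 6 genes past the interaction threshold, and the dashed line marks equal values. Of the 63 points, 46 lie above the line.

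The calls depended on single libraries and on the scaling. All 6 genes that fell at 20°C kept a negative log2 fold change in all 12 alternatives. In the alternatives with all libraries it ranged from -1.21 to -0.99 for *col-178* and from -1.08 to -0.86 for *col-106*. However, none of them passed the threshold after scaling to the same total or to the upper quartile, without the filter on low values or without the variance trend. With a mean of at least 100 as the filter, 12 members fell (25.5%, against 0.405% of all genes). Without *nmad-1* library A, 17 members fell at 20°C (17.3%, against 0.367% of all genes). Without library B, 18 fell and 7 rose (18.4% and 7.14%, against 25.6% and 8.45% of all genes), so the share of members that fell was below that of all genes in this fit. All 6 were among them both times. Without WT library A, 1 fell, which was none of the 6, and without WT library B, 0 fell. The median log2 fold change of the members at 20°C was -0.93 without *nmad-1* library A and 0.21 without library B. In the interaction test, 18 members passed with a higher value without *nmad-1* library A at 20°C (28.6%, against 20.2% of all genes with a higher and 31.5% with a lower value), and 0 passed without library B (against 0.249%). Without WT library A or B at 20°C the count was 1 and 2 (against 4.76% and 2.68% of all genes). Without *nmad-1* library A or B at 25°C it was 3 each (against 10.3% and 2.88%), and without WT library A or B at 25°C it was 1 and 15 (against 5.40% and 5.42%). It was 0 without the variance trend (against 0.0355%).

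At 25°C, 4 members rose and 3 fell without *nmad-1* library A (6.25% and 4.69%, against 27.6% and 36.1% of all genes), and 7 rose and 1 fell without library B (10.9% and 1.56%, against 20.1% and 28.2%). Without WT library A, 11 rose and 13 fell (17.2% and 20.3%, against 27.5% and 28.8%), and without WT library B, 23 rose and 0 fell (35.9% and 0%, against 27.3% each way). Without the variance trend 5 rose and 1 fell (7.81% and 1.56%, against 31.3% and 28.5%). Of the 13 genes under the naming rule that passed at 25°C, 11 lost their calls in at least 1 alternative. The others, *col-99* and *col-109*, kept their calls in all alternatives that could test them. Since *col-109* passed the filter on low values at 25°C only through *nmad-1*, its kept call is a description and adds no support. Without WT library A the log2 fold changes of *col-139*, *col-142* and *col-95* were 0.61, 0.73 and 0.34 (adjusted p = 0.225, 0.0828 and 0.0842). Without WT library B those of *col-103*, *col-19* and *col-98* were -0.59, -0.37 and -0.39 (adjusted p = 0.183, 0.254 and 0.352).

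Members with a known role outside the main classes were mostly low. The near-identical neighbours *col-12* and *col-13* (V) had values at 20°C of 104 and 27.1 in *nmad-1* and 57.1 and 164 in WT, and of 85.7 and 0 in *nmad-1* and 23.9 and 56.5 in WT, with reads divided between them. The dauer-associated genes *col-2* and *col-40* stayed at or below 8.01 in every library, and *col-7* at or below 12.4. Chosen after its values were seen, *col-43* (V) had 5.80 and 5.93 in *nmad-1* and 30.9 and 36.4 in WT at 20°C (log2 fold change -2.33, adjusted p = 0.216). At 25°C it had 4.58 and 0 in *nmad-1* and 14.9 and 17.5 in WT, too low for the test.

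Other genes of the cuticle were set beside the family. Of the 19 cuticle collagens with other names (*dpy*, *sqt*, *rol*, *bli* and *lon-3*), 5 rose and 1 fell of 9 tested at 25°C (median 1.90), and none of 18 passed at 20°C (median 0.13). Of those that rose, *dpy-3* and *dpy-7* passed the filter of 10 at 25°C only through *nmad-1*, so this count is a description. Over all genes tested, 32.8% rose and 38% fell at 25°C, and 0.343% rose and 0.139% fell at 20°C. Those that rose included *sqt-3* (log2 fold change 2.88, adjusted p = 0.000871) and *dpy-17* (1.90, adjusted p = 0.00625), and *dpy-10* fell (-1.14, adjusted p = 0.00217). The body shape collagen *rol-6* behaved like the class low at 25°C: it was at 0 in all 4 libraries at 25°C, and at 20°C it had 320.0 and 76.3 in *nmad-1* and 130 and 169 in WT. The values of *dpy-13* at 20°C were 857 and 203 in *nmad-1* and 364 and 639.9 in WT. In *dpy-17* the order of the *nmad-1* libraries was the other way, with 104 and 461 in *nmad-1* and 144 and 154 in WT.

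Of the genes for collagen maturation and cross-linking, 4 rose and 2 (*bli-4* and *pdi-2*) fell of 11 tested at 25°C, and those 2 changed sign when scaled to the same total, while none of 10 passed at 20°C. The prolyl 4-hydroxylase subunit *phy-2* was among those that rose (2.19, adjusted p = 0.00545). Of the non-collagen cuticle and moulting genes, 11 of 13 rose at 25°C (median 2.16) and none of 14 passed at 20°C. Among those that rose, *mlt-9*, *ptr-4*, *cut-3* and *nas-37* had WT means of 3.68, 6.92, 6.92 and 9.60 at 25°C. They passed the filter of 10 only through *nmad-1*, as did *tsp-15* (5.01), which rose among the maturation and cross-linking genes. A difference was built into their selection, so these counts are descriptions. Of the epidermal transcription factors, 3 rose and 1 fell of 10 at 25°C, the last being *nhr-23*, a regulator of the moult (-0.32, adjusted p = 0.0261), whose sign also changed at the same total. The list of collagens outside the cuticle (the basement membrane collagens *emb-9*, *let-2* and *cle-1*, with *col-99*) had 4 of 4 higher at 25°C (median 0.92) and 0 of 4 past the threshold at 20°C. These counts stand beside 32.8% of all genes tested that rose and 38% that fell at 25°C. The share that rose was 58.7% at a mean of 10 to 100, 33.2% at 100 to 1000 and 3.35% at 1000 or more.

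Markers of other tissues were set beside these results. The 10 epidermal markers, of which *rol-6* and *dpy-13* were at 0 in at least 1 library, summed to 259 and 246 ppm in *nmad-1* and 179 and 169 in WT at 25°C, and to 302 and 218 in *nmad-1* and 209 and 235.5 in WT at 20°C. Most of each sum was *lin-26*, with means of 212 ppm in *nmad-1* and 166 in WT at 25°C, and 169 and 159 at 20°C. On the deposited values its log2 fold change at 25°C was -0.22 (limma, adjusted p = 0.0726), with both *nmad-1* values below both WT values. The 8 body wall muscle markers summed to 1450.4 and 1632 ppm in *nmad-1* and 417 and 540.4 in WT at 25°C, and to 5340 and 1789 in *nmad-1* and 1830 and 2513 in WT at 20°C. The 8 intestinal markers summed to 4964 and 16888 ppm in *nmad-1* and 1381 and 2356 in WT at 25°C, and to 4616 and 11977 in *nmad-1* and 6703 and 7824 in WT at 20°C. The 8 neuronal markers summed to 350.1 and 300.5 ppm in *nmad-1* and 169 and 156 in WT at 25°C, and to 528 and 238 in *nmad-1* and 255 and 266 in WT at 20°C. At 25°C most of this was *snb-1*, with means of 194 ppm in *nmad-1* and 131 in WT (log2 fold change of the deposited values -0.005). The 8 sperm markers, 4 of which were at 0 in at least 1 library, summed to 35.3 and 49.2 ppm in *nmad-1* and 1.999 and 1.48 in WT at 25°C, and to 37.6 and 5.07 in *nmad-1* and 3.45 and 1.16 in WT at 20°C. The 8 markers of the gonadal sheath and spermatheca summed to 1117 and 1289.7 ppm in *nmad-1* and 1361 and 1157 in WT at 25°C, and to 1311 and 1184 in *nmad-1* and 1177 and 1231 in WT at 20°C. At 25°C, 6 of 8 neuronal and 6 of 6 sperm markers tested rose and none fell, and 2 of 8 sheath and spermatheca markers rose and 3 fell, of which *inx-8* and *plst-1* changed sign when scaled to the same total. At 25°C, 3 of 7 epidermal, 7 of 8 muscle and 7 of 8 intestinal markers rose and none fell, while 8 of 8 germ cell markers fell, of which *him-3* and *syp-1* changed sign when scaled to the same total. Among the sperm markers that rose, *msp-3*, *gsp-3*, *spe-11*, *gsp-4* and *msp-10* had WT means of 1.98, 2.58, 3.63, 5.11 and 5.31 at 25°C. They passed the filter of 10 only through *nmad-1*, as did the intestinal marker *elt-2* (6.21). A difference was built into their selection, so the sperm and intestinal counts at 25°C are descriptions. Of all genes tested at 25°C, 32.8% rose and 38% fell. At a mean of at least 1000, where all 8 germ cell markers lay, 79.2% of all genes fell, and at a mean of 10 to 100, 58.7% rose. At 20°C none of the epidermal, muscle or germ cell markers passed, and 1 intestinal marker (*cpr-1*) and 1 sperm marker (*msp-10*, log2 fold change 4.34, adjusted p = 0.0218) rose. The values of *msp-10* at 20°C were 173 and 16.2 in *nmad-1* and 6.26 and 0 in WT, with parts of reads. It passed the filter at 20°C only through *nmad-1*, so its call is a description. In *nmad-1* at 20°C the sums of the epidermal, muscle, neuronal, sperm, and sheath and spermatheca markers were higher in library A, as were the genes low at 25°C. The intestinal sum was higher in library B, but not every intestinal marker was. In libraries A and B *vit-2* had values of 27165 and 107886 and *vit-6* 28149 and 109283, while *ifb-2* had 2127 and 1016. The part of these tissues in the *col* values was not tested.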

How the data were processed

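The mRNA of germlines from 8 samples (2 in each of 4 groups) was sequenced. Per the labels and the methods, the authors aligned reads with Bowtie2 2.2.9 to WS220 (ce10) and quantified them with RSEM 1.3.0. The deposited signal is, as read from the values, an expected count divided by an EBSeq size factor, in 1 table of 4 libraries per temperature. Columns were assigned to groups by the comparison that descriptions and S1 Table name. The authors' own comparisons (posterior probabilities and fold changes of group means) were deposited too and were not used.

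Since only 90.9% to 92.0% of nonzero values came out as whole reads (within 0.01), no count test was run. Genes with a mean of at least 10 were fitted with limma 3.58.1 (R 4.3.3) on log2(value + 1), with a variance trend and no covariates, two-sided, adjusted by Benjamini-Hochberg over all genes tested at 0.05. This scale understates changes of low genes. The code was tested on simulated data. A count of 0 allows up to 3 reads, for counting error only. The p-values measure the spread between libraries alone.

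Genes were named by rule: members past the threshold at 20°C, the largest changes at 25°C with a mean of at least 50 and no overlap, the 10 largest in WT, the smallest interaction p, and textbook members. Members, lists and this rule were chosen with earlier results of these data known. Alternatives were other pseudocounts, filters and scalings, no trend, and each library left out. WBcel235 gave names, exons, neighbours and overlaps with other coding genes, by its own gene positions. No coordinates are printed, since the builds differ. No list test was run.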

Additional observations from a re-analysis of the deposited data

Results flagged for a closer look

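The genotype difference of 6 *col* genes differed between the temperatures by the interaction test, with the difference at 25°C above that at 20°C. These are 9.52% of the 63 members tested, near the 8.07% of all genes. It was 3.79 on the log2 scale for *col-14*, 3.07 for *col-109*, 1.49 for *col-106*, 1.35 for *col-184*, 1.33 for *col-122* and 1.29 for *col-95*. Without *nmad-1* library B at 20°C these values were 3.45, 2.72, 1.62, 1.43, 1.46 and 1.33, and none passed the threshold (adjusted p from 0.0521 to 0.154). At 25°C *col-14* and *col-109* passed the filter on low values only through *nmad-1*. Groups of 2 libraries were not searched for libraries that stand apart.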

How the results depend on the processing

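The counts of *col* genes depended on the processing. At 25°C (18 higher, 5 lower), the higher count was 29 at the same total, 3 with a mean of at least 100, 5 without the trend and 32 at the same total outside *rrn*- genes, a scaling chosen after seeing the data. The lower count was 3 with a pseudocount of 10, 2 with no filter, 1 without the trend and 0 at the same total, the same outside *rrn*- genes and the upper quartile. Leaving out 1 library gave 4 to 23 higher and 0 to 13 lower. The median (0.36) was -0.19 with a mean of at least 100, where fewer genes were tested, 0.92 at the same total, 0.75 at the upper quartile and 0.92 outside *rrn*- genes. At 20°C (0 higher, 6 lower), the lower count was 12 with a mean of at least 100 and 0 with no filter, at the same total, at the upper quartile, without the trend and outside *rrn*- genes. Leaving out 1 library gave 0 to 18 lower and 0 to 7 higher, and a median (-0.40) of -0.93 to 0.21, the last without *nmad-1* library B. The interaction count (6) was 12 at the same total, 3 at the upper quartile and 0 without the trend. Leaving out 1 library gave 0 to 18 higher and 0 to 1 lower. Outside *rrn*- genes *col-181* had 0.56 at 25°C (adjusted p = 0.0313), and *col-38* had 0.035 there and 0.038 at the same total. Where 1 library of a group was left, it was assumed to vary like the others. The cause was not tested except as stated. No paired analysis was possible because the columns carry no replicate numbers. Depth limits members near the value of 3 reads, 2.33 to 4.42 per library.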
